A study of Mus musculus with 5 samples.

Results

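Osteocytes sit inside bone and reach each other through long dendrites, thin processes filled with bundled actin. The genes described here are 9 that encode podoplanin (Pdpn), a membrane glycoprotein of early osteocytes, its partners Cd44 and the ezrin, radixin and moesin family (Ezr, Rdx and Msn), and 4 actin-remodelling proteins (Capg, Dstn, Fscn1 and Pls3). They were chosen by name, as the rows of the deposited value table whose platform gene symbol is on this list. All 9 were found, each with 1 probe set, among 23185 named genes of 25206 probe sets. They were measured in 5 single-cell clones of Ocy454, an established mouse osteocyte-like cell line, with 1 Affymetrix array per clone. The clones came, per the labels, from 37 that were tested for expression of Sost, the gene of the Wnt inhibitor sclerostin. The high-Sost clones are 12H and 15H (n = 2) and the low-Sost clones are 4L, 9L and 24L (n = 3). All 5 grew untreated for 7 days in αMEM-based medium, and each stands for a single founder cell and a single array in these data. The comparison asks which genes differ between clones that were picked for high and for low Sost.

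Podoplanin is needed for dendrite elongation in osteocyte-like cells under fluid flow and is known in bone as an early marker of osteoblasts becoming osteocytes. Its short cytoplasmic tail binds ezrin and moesin, which tie membrane proteins to the actin cortex when they are phosphorylated in the RhoA pathway. Its outer part can associate with Cd44, a receptor for hyaluronan whose own tail also binds ezrin, radixin and moesin (the ERM proteins). Inside the process, fascin and plastin bundle filaments, destrin severs and depolymerizes them, and the gelsolin-family protein CapG caps their growing ends.

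The 250 bases before the annotated start of transcription are shown for the 2 members with the widest range over the clones (Pdpn and Ezr), for Dstn, whose groups also separated in the direction of Pdpn, and for Msn, the ERM gene whose clone order differed most from that of Ezr. The sequences are those of RefSeq on assembly GRCm38.p6, which had entries for all 9 members, and are written 5′ to 3′ on the gene's own strand. Capitals mark matches, on either strand, to a GC box (GGGCGG), an AP-1 site (TGANTCA), a CArG box, a TEAD site (GGAATG) or a CACGTG E-box, and no marked match overlapped another in these windows.
Pdpn, chr4:143299565-143299814, minus strand: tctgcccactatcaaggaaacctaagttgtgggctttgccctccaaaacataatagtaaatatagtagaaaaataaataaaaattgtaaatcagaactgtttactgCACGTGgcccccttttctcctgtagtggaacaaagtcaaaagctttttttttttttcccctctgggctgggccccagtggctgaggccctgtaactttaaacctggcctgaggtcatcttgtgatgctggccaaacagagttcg
Dstn, chr2:143915081-143915330, plus strand: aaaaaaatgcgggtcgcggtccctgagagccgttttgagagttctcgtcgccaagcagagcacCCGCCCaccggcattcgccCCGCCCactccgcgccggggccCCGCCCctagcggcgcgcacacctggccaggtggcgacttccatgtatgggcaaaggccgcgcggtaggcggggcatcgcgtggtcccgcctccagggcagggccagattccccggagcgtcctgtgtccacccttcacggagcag
Ezr, chr17:6782781-6783030, minus strand: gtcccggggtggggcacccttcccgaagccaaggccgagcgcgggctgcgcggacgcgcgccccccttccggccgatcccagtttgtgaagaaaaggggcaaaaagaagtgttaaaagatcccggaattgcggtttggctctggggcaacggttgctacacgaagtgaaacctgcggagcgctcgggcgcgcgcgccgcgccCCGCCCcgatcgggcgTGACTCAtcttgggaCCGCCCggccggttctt
Msn, chrX:96095795-96096044, plus strand: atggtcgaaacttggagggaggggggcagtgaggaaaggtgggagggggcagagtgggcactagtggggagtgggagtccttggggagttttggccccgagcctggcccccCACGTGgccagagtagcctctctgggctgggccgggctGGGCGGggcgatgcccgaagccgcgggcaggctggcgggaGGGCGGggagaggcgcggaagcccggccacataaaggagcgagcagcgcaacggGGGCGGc
The Pdpn window is the poorest of these in G and C, at 43.2%, against 69.6% in Dstn, 67.2% in Ezr, 71.6% in Msn and a median of 52.4% over 32851 promoter windows of the same length. It held 1 E-box and no GC box, AP-1, CArG or TEAD letters. GC boxes, present in 32.7% of all windows, were matched 3 times in Dstn, 2 times in Ezr and 3 times in Msn, and the E-box of Msn recurs in 6.02% of windows. The AP-1 match of Ezr lies between 32 and 26 bases before the start, and 6.75% of all windows hold such a match. TEAD letters, found in 12.6% of windows, were matched among the members in the windows of Pls3 alone. No CArG letters, found in 1.47% of windows, occurred in any window of the 9 members. A match describes letters only, and no factor binding was measured.

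Expression is given as RMA log2 values, which can be compared between clones but not between genes. The precision is limited by having 5 arrays, whose medians lay between 4.04 and 4.08. In each clone every member stood above the 95th percentile of 1354 olfactory and vomeronasal receptor genes, which was 3.37 to 3.56 and serves as a level of little or no signal. A difference is the high-Sost mean minus the low-Sost mean, and its standard error (SE) and adjusted p come from limma fitted over all named genes. Since the labels name no batch and nothing says the clones were cultured more than once, the p-values measure only the spread between these 5 arrays.

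Of the 9 members, 0 passed limma at an adjusted p under 0.05, as did 0% of all genes tested. At an unadjusted p under 0.05 there were 2 members, both lower in the high-Sost clones, against 5.78% of all genes in either direction and 2.71% lower. Among genes with a mean of 6 or more, as 8 of the 9 members have, the share in either direction was 9.59%. In the same model without moderation 0 members passed at an adjusted p under 0.05. There 1 member, Pdpn, lay under an unadjusted 0.05, beside 3.74% of all genes. The high-Sost and low-Sost clones did not overlap for 3 members, Pdpn and Dstn below and Pls3 above, where 16.0% of all genes and 26.4% of genes with a mean of 6 or more did not overlap. Over all genes this separation was downward for 7.75% and upward for 8.26%. The median difference of the members was -0.03, beside 0 over all genes and 0.0058 over the 7807 genes with a mean of 6 or more. Their median size regardless of sign was 0.22, beside 0.11 and 0.18. None reached 2-fold, a size passed by 2.49% of all genes.

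**Figure D1:**
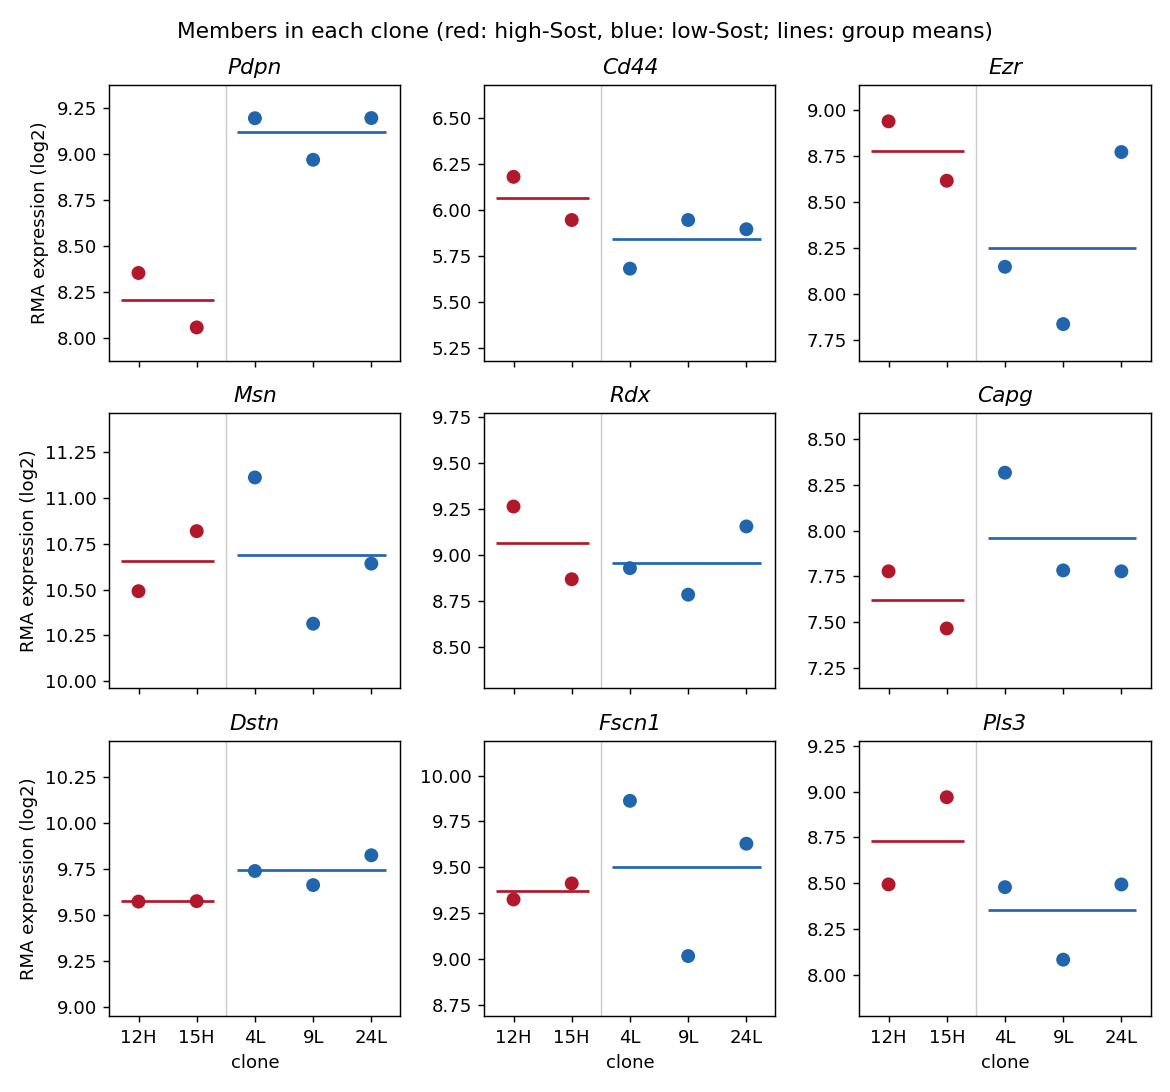
RMA log2 expression of each member (y axis) in each clone (x axis), red points for the high-Sost and blue for the low-Sost clones, with lines at the group means; every panel spans the same 1.5 log2 units. The 2 high-Sost clones lie below all low-Sost clones for Pdpn, whereas Ezr, Msn and Fscn1 vary more among the 3 low-Sost clones than between the groups.

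Pdpn, the podoplanin gene, read 8.35 (12H) and 8.06 (15H) in the high-Sost clones and 9.20 (4L), 8.97 (9L) and 9.20 (24L) in the low-Sost clones. Every low-Sost clone was above every high-Sost clone, and the empty gap between the groups, 0.62, was wider than the range of either group (0.30 among high-Sost and 0.23 among low-Sost clones). The means were 8.20 ± 0.21 (SD, n = 2) and 9.12 ± 0.13 (SD, n = 3), 1.89-fold apart. The difference was -0.92 (SE 0.13, 95% interval -1.30 to -0.53) and did not pass (adjusted p = 0.572). In size it exceeded 95.9% of the genes with a mean of 6 or more. The exact permutation test of 2 against 3 clones gave p = 0.1, two-sided, which is the smallest it can give.

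With any of the 5 clones left out, the difference of Pdpn was -1.06 to -0.77. Its sign could not turn there, because the groups do not overlap. Clones 4L and 24L were level for Pdpn (0.00093 apart), although they differ by 0.62 for Ezr and 0.54 for Capg. Among 18852 other genes, the profiles nearest to that of Pdpn over the 5 clones, each gene centred on its mean, were Serpinb9, a serine protease inhibitor (Euclidean distance 0.25), Podn, a leucine-rich proteoglycan (0.26), and Ss18l2 (0.28). Serpinb9 read 4.77 and 4.69 in 12H and 15H and 5.36 to 5.59 in the low-Sost clones. Podn read 3.15 to 4.09, near the level of the receptor genes. With 5 values per gene such a match is a description of these clones.

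Cd44, the hyaluronan receptor, read 6.18 (12H) and 5.95 (15H) in the high-Sost clones and 5.68 (4L), 5.95 (9L) and 5.90 (24L) in the low-Sost clones. Clone 15H and clone 9L held the same value, so the groups met. The difference was 0.22 (SE 0.12, interval -0.13 to 0.58, adjusted p = 0.737), opposite in sign to that of Pdpn. It was 0.10 without 12H, 0.14 without 4L and 0.34 without 15H. The 5 clones spanned 1.41-fold.

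Ezr, which encodes ezrin, had the widest range after Pdpn, 1.10 against 1.14 on the log2 scale, and most of it lay within the low-Sost group. It read 8.94 (12H) and 8.61 (15H) in the high-Sost clones and 8.15 (4L), 7.83 (9L) and 8.77 (24L) in the low-Sost clones. The low-Sost clone 24L stood between the high-Sost clones, and 4L and 9L stood under both. Its high-Sost mean was 8.78 ± 0.23 (SD, n = 2) and its low-Sost mean 8.25 ± 0.48 (SD, n = 3). The difference of 0.53 (SE 0.34, interval -0.44 to 1.5, adjusted p = 0.737) was smaller than the 0.94 between 9L and 24L. Without 24L the groups separated, as did those of 23.6% of all genes, with a difference of 0.79, and without 9L it was 0.32. The nearest profiles to Ezr were Ahcy (distance 0.08), the homeobox gene Dlx2 (0.22) and the Golgi protein gene Glg1 (0.22). Ahcy read 3.51 (9L) to 4.62 (12H), in 9L near the level of the receptor genes.

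Msn, which encodes moesin, read 10.5 (12H) and 10.8 (15H) in the high-Sost clones and 11.1 (4L), 10.3 (9L) and 10.6 (24L) in the low-Sost clones. Its highest and lowest clones were both low-Sost clones, 1.74-fold apart, and the group means differed by -0.03 (SE 0.29, interval -0.87 to 0.80, adjusted p = 1). Clone 4L, the highest for Msn, was the second lowest for Ezr. Rdx, which encodes radixin, read 9.26 (12H) and 8.87 (15H) in the high-Sost clones and 8.93 (4L), 8.79 (9L) and 9.16 (24L) in the low-Sost clones. Clone 24L lay between the high-Sost clones and 15H lay between the low-Sost clones, so the groups overlapped (difference 0.11, SE 0.18, interval -0.42 to 0.64, adjusted p = 0.857). Once each clone's median deviation over the genes of a chromosome was subtracted, the difference of Rdx was 0.23. Its groups were separate there, as were those of 22.7% of all genes.

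The ERM genes thus had 3 different clone orders. Ezr and Rdx both had 12H first, 24L next and 9L last, and their centred profiles lay 0.62 apart. Msn lay 1.09 from Ezr and 0.77 from Rdx, and its direction turned positive without 4L (0.18) or without 12H (0.13). The direction of Rdx turned negative without 12H (-0.09), and its difference was 0.02 without 9L and 0.31 without 15H. The intervals reached 1.5 for Ezr and -0.87 for Msn, so equal levels in the 2 groups were not shown.

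**Figure D2:**
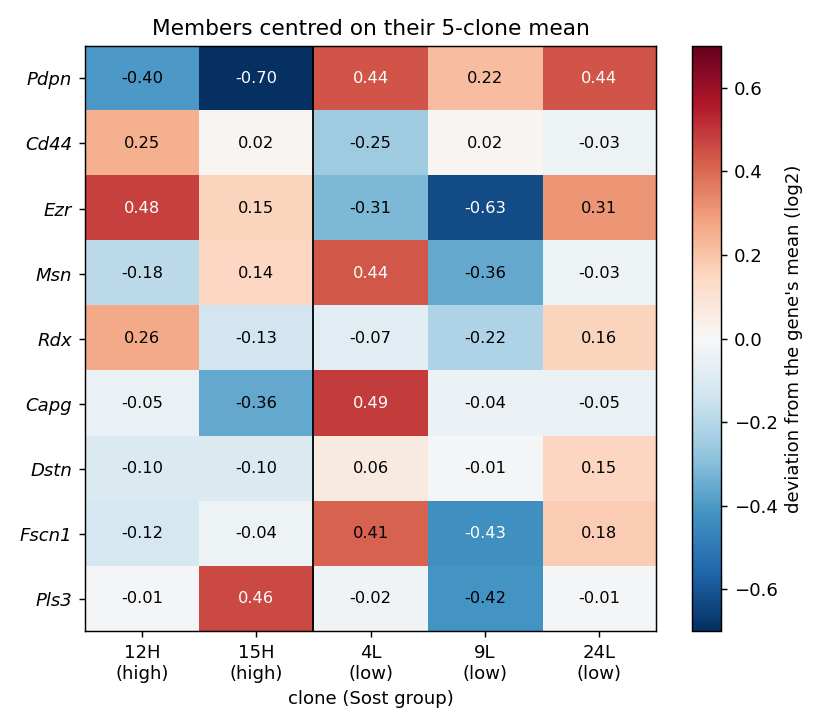
Deviation of each member from its own mean over the 5 clones (colour and printed value, log2), with high-Sost clones left of the line. Pdpn is negative in both high-Sost clones and positive in all low-Sost clones, and clone 9L holds the lowest value of Ezr, Msn, Rdx, Fscn1 and Pls3.

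Among the actin-remodelling members, Dstn, which encodes the depolymerizing factor destrin, varied least. It read 9.574 (12H) and 9.577 (15H) in the high-Sost clones and 9.74 (4L), 9.66 (9L) and 9.83 (24L) in the low-Sost clones. All low-Sost clones were above the high-Sost clones, but the gap was 0.09 and the whole range 1.19-fold, a range wider than that of 10.7% of genes with a mean of 6 or more. The difference was -0.17 (SE 0.06, interval -0.33 to -0.0027, adjusted p = 0.737), and the exact permutation test gave p = 0.2, two-sided. Dstn left the unadjusted limit when 4L, 24L, 12H or 15H was left out.

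Pls3, which encodes plastin 3 (T-plastin), an actin bundler whose human gene is known for X-linked osteoporosis, read 8.49 (12H) and 8.97 (15H) in the high-Sost clones and 8.48 (4L), 8.09 (9L) and 8.49 (24L) in the low-Sost clones. Its groups were counted as separate only because 12H exceeded 24L by 0.0002, far less than the SE of the difference, and they met once the arrays were quantile normalized again. Clone 15H stood alone at the top and 9L alone at the bottom, while 12H, 4L and 24L read 8.48 to 8.49. The difference was 0.38 (SE 0.22, interval -0.26 to 1.02, adjusted p = 0.737), and it was 0.14 without 15H, 0.24 without 9L and 0.62 without 12H. Pls3 and Msn lie on chromosome X, where the median of 218 genes with a mean of 6 or more was -0.40 in 12H relative to the other 4 clones and 0.15 in 15H. With these chromosome medians subtracted the difference of Pls3 was 0.55 and that of Msn 0.14.

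Capg, the capping protein gene, read 7.78 (12H) and 7.47 (15H) in the high-Sost clones, 8.31 in 4L, and 7.78 in 9L as in 24L. Clone 4L was 1.45-fold above 24L, 12H and 24L held the same value, and 15H was lowest. The difference of -0.34 (SE 0.23, interval -1.0 to 0.33, adjusted p = 0.737) was -0.16 without 4L and -0.18 without 15H. Capg lies on chromosome 6, where the median of 377 genes was 0.36 in 12H relative to the other clones, and the difference was -0.48 with chromosome medians subtracted.

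Fscn1, which encodes the filament bundler fascin, read 9.33 (12H) and 9.41 (15H) in the high-Sost clones and 9.86 (4L), 9.02 (9L) and 9.63 (24L) in the low-Sost clones. The high-Sost clones lay inside the range of the low-Sost clones, which spanned 1.80-fold. High-Sost clones averaged 9.37 ± 0.06 (SD, n = 2) and low-Sost clones 9.50 ± 0.44 (SD, n = 3). The difference was -0.13 (SE 0.29, interval -0.98 to 0.71, adjusted p = 0.908). Its direction rested on 4L, without which it was 0.05, while it was -0.38 without 9L and -0.07 without 24L. Fscn1 and Msn had the most similar profiles of any 2 members (distance 0.30), with 4L highest and 9L lowest in both.

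**Figure D3:**
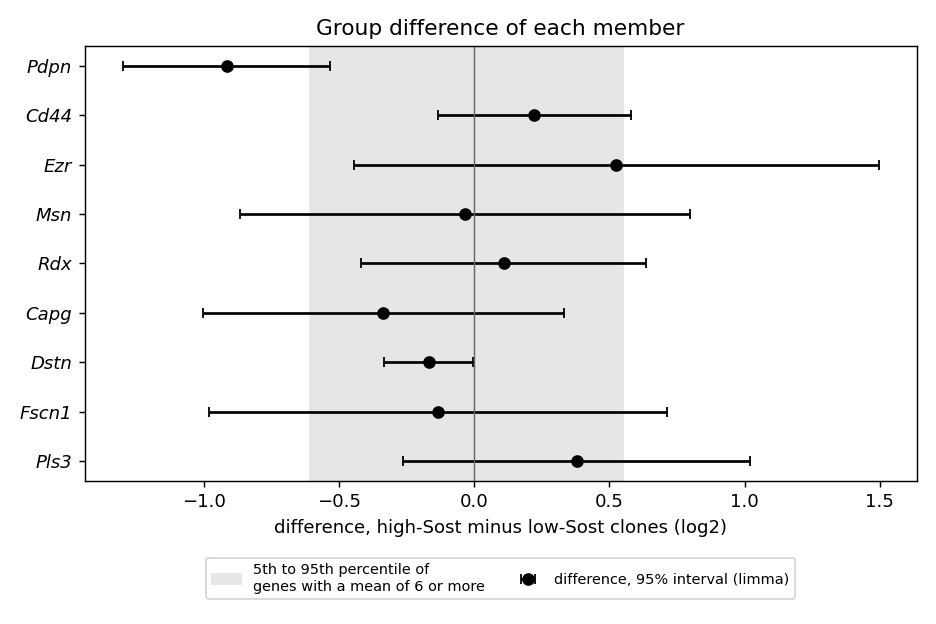
Difference between group means of each member (x axis, log2, high-Sost minus low-Sost) and the 95% interval of limma; the grey band spans the 5th to 95th percentile of the 7807 genes with a mean of 6 or more, -0.61 to 0.55. Pdpn lies outside the band, the interval of Dstn ends just below 0 and the other 7 intervals include 0.

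Clone 9L was the lowest of the 5 for 5 of the 9 members (Fscn1, Ezr, Msn, Rdx and Pls3) and the highest for 0. Over the genes with a mean of 6 or more, 9L was the lowest for 19% and the highest for 20.0%. Clone 4L was highest for 3 members (Capg, Fscn1 and Msn) and lowest for 1 (Cd44). Clones 12H and 24L were highest for 3 and 2 members. Over the genes with a mean of 6 or more, 4L was highest for 26.1% and lowest for 24.7%. There 12H was highest for 23.3% and 24L for 16.5%. Pdpn and Dstn were the 2 members whose groups stood apart by more than the 0.0002 of Pls3.

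Related genes came from 6 lists of the same machinery, of which 80 of 88 were measured. By limma 0 of the 80 passed at an adjusted p under 0.05, and 7 (3 higher and 4 lower) lay under an unadjusted 0.05, beside 5.78% of all genes. Their clones did not overlap for 16 (10 higher and 6 lower), beside 16.0% of all genes. A mean of 6 or more was held by 55 of the 80. Over all genes with such a mean, 9.59% lay under an unadjusted 0.05 and 26.4% did not overlap. The median difference was 0.0095, beside 0 over all genes. The 7 genes, Has2 and Acta2 aside, were singled out after their values were seen.

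Among 8 measured partners of podoplanin and Cd44 the median difference was -0.02. Has2, a synthase of the Cd44 ligand hyaluronan, read 3.81 (12H) and 3.98 (15H) in the high-Sost clones and 5.14 (4L), 5.71 (9L) and 6.51 (24L) in the low-Sost clones. All low-Sost clones were above the high-Sost clones (difference -1.89, SE 0.47, adjusted p = 0.737), and the high-Sost values lay near the receptor-gene level. The difference of Has2 was -1.48 with chromosome medians subtracted. Hyal1, a hyaluronidase picked after its values were seen, also did not overlap (-0.83, SE 0.33, and -0.43 without 12H). Has2 and Hyal1 were the 2 of the 8 without overlap, beside 16.0% of all genes. Cd9, a tetraspanin partner of podoplanin, differed by 0.34 (SE 0.39), and by -0.04 without 12H. Lgals8, the lectin galectin-8, differed by -0.32 (SE 0.24), by -0.05 without 12H, -0.19 without 4L, -0.60 without 15H and -0.14 with chromosome medians subtracted. Clec1b, the platelet receptor for podoplanin, read at most 1.86 and stayed under the receptor-gene level in all clones.

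The 11 measured ERM regulators and membrane partners had a median difference of -0.04. Slk, a kinase that phosphorylates ERM proteins, read 8.09 (12H) and 8.0 (15H) in the high-Sost clones and 7.60 (4L), 7.44 (9L) and 7.66 (24L) in the low-Sost clones (difference 0.48, SE 0.09, adjusted p = 0.624), with no overlap. It was the only 1 of the 11 whose groups separated, beside 16.0% of all genes. Rhoa, the GTPase upstream of ERM phosphorylation, spanned 10.5 to 10.7 over the clones and its effector kinase gene Rock1 7.86 to 8.23, while Rock2 is not analysed here. Nf2, which encodes the ERM relative merlin, spanned 7.74 to 8.28, and the ERM-binding scaffold gene Slc9a3r1 6.19 to 7.15, with 24L lowest in both.

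Of 21 severing, capping and turnover genes 4 were higher and 1 lower without overlap, beside 16.0% of all genes in either direction (median difference 0.04). Gsn, the gelsolin gene and a relative of Capg, read 9.84 (12H) and 9.30 (15H) in the high-Sost clones and 9.13 (4L), 9.05 (9L) and 9.23 (24L) in the low-Sost clones (difference 0.43, SE 0.19, adjusted p = 0.737), opposite in sign to Capg. The difference of Gsn was 0.16 without 12H and 0.70 without 15H. Flii, another gelsolin-family gene, differed by 0.32 (SE 0.06, adjusted p = 0.630). Avil, the advillin gene of the same family, picked after its values were seen, read 10.7 and 10.6 in the high-Sost clones, 10.4 in 9L, 8.45 in 4L and 7.88 in 24L, so 9L read closer to the high-Sost clones than to the other low-Sost clones. The cofilin genes nearest to Dstn in sequence family, Cfl1 and Cfl2, spanned 4.38 to 4.79 and 8.37 to 9.35, with overlap. Scin held 3.06 on every array, under the receptor-gene level.

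Among 8 bundling and cross-linking genes 0 lay under an unadjusted 0.05 and 1 did not overlap, beside 5.78% and 16.0% of all genes, with a median difference of 0.03. The relatives of Pls3, Pls1 and Lcp1, spanned 3.69 to 4.62 and 3.25 to 3.37, the latter under the receptor-gene level in every clone, and Fscn2, the relative of Fscn1, spanned 3.17 to 3.56. Among 23 nucleation and elongation genes the median was 0.0042, and Baiap2, which encodes a membrane-bending protein of filopodia, was the 1 under the unadjusted limit (-0.72, SE 0.22, adjusted p = 0.737). Actins and tropomyosins had the lowest list median, -0.19 over 9 measured genes. Acta2, smooth muscle actin, read 9.18 (12H) and 9.06 (15H) in the high-Sost clones and 9.72 (4L), 10.8 (9L) and 10.8 (24L) in the low-Sost clones (-1.30, SE 0.41), and Tpm2, a tropomyosin, differed by -1.99 (SE 0.54), both with adjusted p = 0.737. Acta1, skeletal actin, differed by 0.48 (SE 0.10, adjusted p = 0.677), and by 0.27 with chromosome medians subtracted. Actb spanned 11.9 to 12.2 with overlap, and Actg1 is not analysed here.

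**Figure D4:**
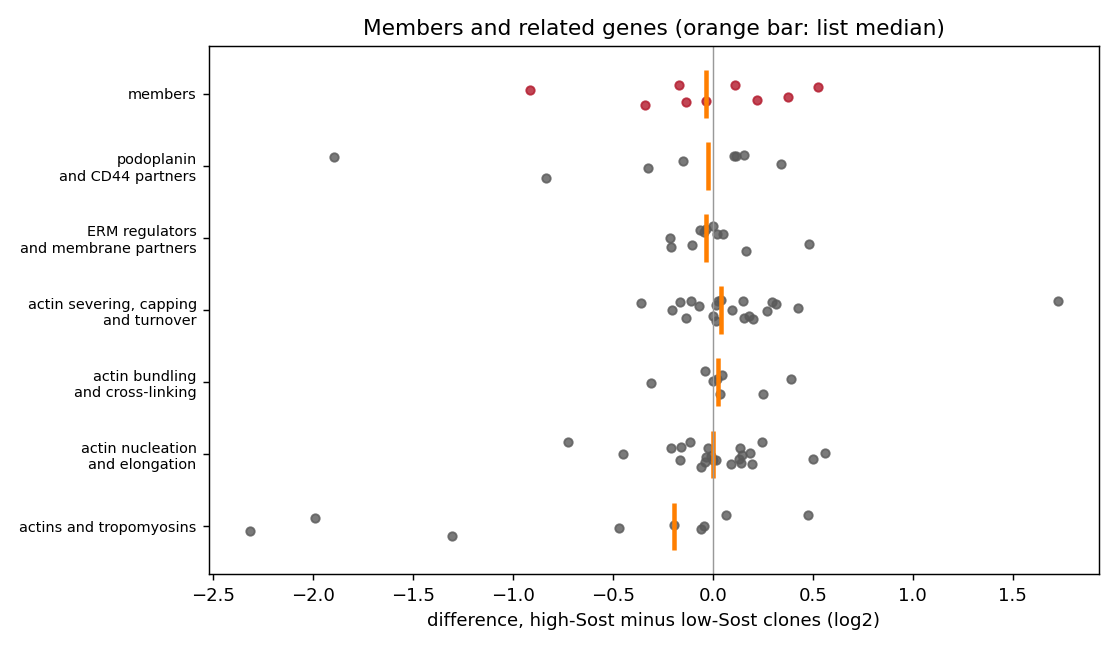
Difference between group means (x axis, log2, high-Sost minus low-Sost clones) of the 9 members (red) and of the measured genes of each related list (grey), with orange bars at list medians. Medians lie between -0.19 and 0.04, and Pdpn, at -0.92, is the lowest red point.

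Markers were checked for the cell type and for other cells that carry these genes. In the osteocyte list 3 of 7 markers stood above the receptor-gene level in all clones. Dmp1 and Phex, matrix and phosphate genes of osteocytes, were above it in 12H and 15H alone, where Pdpn was lowest, and Mepe in 0 clones. Sost, the gene the clones were picked for, read 4.08 (12H) and 3.92 (15H) in the high-Sost clones and 3.78 (4L), 3.89 (9L) and 3.91 (24L) in the low-Sost clones. The difference was 0.14 (SE 0.07, adjusted p = 0.737 by limma), so the array separated the groups by little for the gene that names them. All these values lay near the receptor-gene level of 3.37 to 3.56, so they do not show how far Sost expression differed. The osteocyte list means were 3.72 to 4.17 in low-Sost and 5.07 to 5.35 in high-Sost clones. The mean of the osteoblast list ran from 5.81 (4L) to 8.93 in low-Sost and from 10.0 to 10.4 in high-Sost clones. For blood cells, rich in Msn, Cd44 and Capg, 2 of 6 markers, Cd68 among them, were above the level in all clones, with list means of 3.07 to 3.34 in low-Sost and 3.09 to 3.20 in high-Sost clones, and Ptprc read at most 1.91. For endothelium, including the lymphatic cells that carry podoplanin, 0 of 6 were above it in all clones, with list means of 2.84 to 2.95 and 2.79 to 2.84, and Pecam1 read at most 3.04 and Prox1 at most 2.45. For epithelium 4 of 5 were above it, with list means of 3.87 to 4.04 and 3.92 to 3.96, and Epcam read at most 1.92. For skeletal muscle 2 of 4 and for fibroblast and tendon 3 of 5 were above it, with list means of 3.81 to 4.16 and 4.41 to 4.99 in low-Sost and 4.22 to 4.30 and 5.04 to 5.27 in high-Sost clones. Of the fibroblast and tendon list, 2 of 5 markers, picked after their values were seen, did not overlap, in opposite directions, beside 16.0% of all genes. Scx, a tendon transcription factor, was lower in the high-Sost clones, like Pdpn (-1.02, SE 0.31, adjusted p = 0.737, and -0.61 with chromosome medians subtracted). Pdgfra, a growth factor receptor of mesenchymal cells, was higher, at 9.21 (12H) and 8.46 (15H) against 3.79 (4L), 6.70 (9L) and 7.60 (24L), a difference of 2.80 (adjusted p = 0.737). The part of these marker differences in the difference of Pdpn was not tested.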

How the data were processed

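The deposited table holds log2 expression per probe set for 5 arrays. RMA, affy 1.36.1 and R 2.15.1 appear in the submitters' processing notes without their roles. For the chip definition, the filters and the build, the method is not given in the sources used here. RMA subtracts background, gives all arrays the same distribution of probe values and summarises probes, so a global shift of a clone would not be seen. The deposited probe-set values, sorted within each array, still differed between arrays by up to 0.24. In the deposited log2 values 55.9% of named genes hold a value repeated between arrays, among them 2 members.

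Names came from the platform's annotation, with symbols updated by Entrez number through RefSeq genes of GRCm38.p6, used for names and chromosomes only. Groups were compared with limma 3.58.1 in R 4.3.3 (lmFit, eBayes without trend, 3 residual and 0.70 prior degrees of freedom), two-sided, and p-values were adjusted over 23185 genes by Benjamini-Hochberg. Exact permutation tests took the share of the 10 splits with an absolute difference at least as large. Non-overlap means that all clones of a group exceed all of the other. Chromosome medians used each clone's deviation from the median of the other 4 over genes with a mean of 6 or more. The fit was tested on simulated data with independent noise and planted differences larger than that of any member. Detection of differences of the members' size was not tested.

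The members and lists were chosen with earlier results of these data known. Named are the members, listed paralogs and partners, and the 3 nearest profiles of members spanning 1 or more, leaving out predicted and receptor genes. Of the listed genes, 11 are not analysed here. Alternatives were a filter on dim genes, other normalizations, variance models and weights, an adjusted p under 0.1, chromosome medians and leaving out each clone. Where 12H or 15H is left out, the spread of the single high-Sost clone is taken from the low-Sost clones. Averaging probe sets did not apply, with 1 per gene. Figures used matplotlib 3.10.9 in Python 3.11.15.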

Additional observations from a re-analysis of the deposited data

How the results depend on the processing

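The count of members passing at an adjusted p under 0.05 was 0 in the main setting, at an adjusted p under 0.1 and in all 13 other alternatives, and so was that of the related genes in those 13. Members without overlap numbered 3 as reported, 6 with chromosome medians subtracted (22.7% of all genes, against 16.0%), 4 with arrays shifted to one median (22.6%), 2 with quantile normalization (22.9%), 3 in the other alternatives with all clones, and 3 to 6 with a clone left out, where fewer clones make separation easier (23.1% to 46.1% of all genes). In every alternative that kept both high-Sost clones, members under an unadjusted 0.05 numbered 1 or 2, beside 3.74% to 7.63% of all genes. Pdpn was among them in each, Dstn in 2, Pls3 with chromosome medians subtracted and Ezr without 24L. The difference of Pdpn was -1.06 to -0.77 over all 13 alternatives. Direction held in all 13 alternatives for Pdpn, Cd44, Capg, Dstn, Ezr and Pls3. The filter on dim genes, the variance models and the fit without moderation leave each difference as it was, so no direction could turn there. Nor could leaving out a clone turn it for Pdpn, Dstn and Pls3, whose groups do not overlap. For Msn the direction turned with chromosome medians subtracted (0.14) and over the clones left out (-0.22 to 0.18). Only when a clone was left out did it turn for Fscn1 (-0.38 to 0.046), Rdx (-0.088 to 0.31) and Cd9 (-0.044 to 0.73). No paired analysis was possible because the clone names are shared by no 2 groups. With 5 arrays the intervals of Ezr, Msn, Fscn1, Pls3 and Capg reach 0.87 or more in at least 1 direction, so differences of nearly 2-fold there could not be resolved.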
